A study of Mus musculus with 8 samples.

Results

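The peaks described here lie at genes of RNA processing and translation, in Pol II pSer5 ChIP–seq data of lung smooth muscle cells (SMCs) with or without the dioxygenase Tet3. A peak was a member if its gene symbol began with Prpf, Srsf, Snrp, Hnrnp, Ddx, Dhx, Sf3, Rbm, Lsm, Cpsf, Cstf, Ints, Exosc, Cnot, Thoc or Eif, or named a ribosomal protein (Rpl or Rps, digits and at most 1 letter). This rule used the symbols alone and no measured value, but it was chosen with earlier results of these data known. It found 67 of the 1761 peaks, each at a different gene, beside 1288 peaks of other genes and 406 peaks to which no gene was assigned.

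Chromatin of SMCs from C57BL/6 mouse lung was compared between control mice (Ctrl, labelled WT) and Tet3smKO:T mice (labelled Mut), with 2 immunoprecipitated libraries per genotype. In Tet3smKO:T mice, floxed Tet3 was removed by the tamoxifen-inducible Cre recombinase α-SMA-ERT2Cre, which the α-SMA promoter directs to smooth muscle cells, and tamoxifen was given to adults. According to the methods, controls lacked the floxed allele and carried the Cre allele, the ROSA26 tdTomato reporter or both. After depletion of CD45- and Ter119-positive blood cells, tdTomato-positive, DAPI-negative cells were sorted, so the sort selected for recombination of the reporter, not of Tet3. Before immunoprecipitation (50 µg DNA, 4 µg antibody), the cells were kept for 1 h at 4 °C in DRB (100 µmol). The methods state in general that biological replicates were used for quantitative analyses, but the labels do not tie the 2 libraries of a genotype to separate animals. All p-values therefore measure the spread between these libraries, which may be technical.

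Serine 5 phosphorylation of the Pol II C-terminal domain marks polymerase that has just initiated, and DRB blocks the kinase that releases paused polymerase into elongation. A Pol II pSer5 peak shows where polymerase with this mark was bound, at the start of a gene or inside it. The paper reads such binding inside genes as entry of polymerase, which a peak alone does not show. The spliceosome removes introns with small nuclear ribonucleoproteins (Snrp, Lsm and Prpf proteins), and SR, hnRNP and RBM proteins influence which splice sites it uses. Transcript ends are cut by cleavage factors (Cpsf, Cstf) or by Integrator (Ints), transcripts are trimmed by the exosome and the CCR4–NOT complex, and eukaryotic initiation factors (Eif) bring ribosomes to the mRNA. Genes of this kind are active in nearly every cell, and many have CpG-rich promoters without a TATA box.

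The values were normalized reads per peak, rounded to whole numbers, with sums over all peaks of 25673 to 27058 per library. The rounded values fitted whole reads times a library-specific step of 0.69 to 1.25, taken from the values themselves. Among values up to 30, those that the step skips held 0 peaks in Ctrl 2 (6 values) and in Tet3smKO:T 2 (5 values). The steps of the other libraries are under 1 and skip no whole number, but values reached from 2 read numbers held more peaks than both neighbours in 3 of 3 cases in Ctrl 1 and 12 of 13 in Tet3smKO:T 1. By these steps, about 21473 to 37076 reads per library lay in the 1761 peaks, which is not the size of the library. A member peak held a median of 10 to 20 such reads per library. No peak was assigned to Tet3, so that its deletion could not be read from the table. None of the 10 SMC markers checked (such as Acta2 and Myh11), and none of the markers of fibroblasts (5), endothelium (4), epithelium (4) or blood (4), had an assigned peak, and the cell type label could therefore not be checked.

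Promoter sequences were read before the TSS of these genes, in windows that need not match the peak borders. A RefSeq promoter (GRCm38.p6) starting within 500 nt of the peak centre was found for 52 of the 67 member genes, and the 250 bases before the TSS were searched on both strands for 7 short motifs. The lines below give stretches without annotated exons, 5′ to 3′ on the strand of the gene, with motif matches in capitals (overlapping matches run together). Eif4a2 is shown as the member peak with the highest value, in total and per 100 nt, Cnot10 for its repeated ETS motif, Rbm39 and Ddx17 for their genotype values described further on, and Rpl26, Rpl27a and Dhx36 for a CRE match.
Eif4a2, chr16:23107218-23107443, plus strand: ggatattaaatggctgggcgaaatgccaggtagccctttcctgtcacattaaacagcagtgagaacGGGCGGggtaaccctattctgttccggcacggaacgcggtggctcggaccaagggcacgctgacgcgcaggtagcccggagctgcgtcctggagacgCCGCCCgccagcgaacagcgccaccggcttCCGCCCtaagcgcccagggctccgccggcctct
Cnot10, chr9:114640201-114640450, minus strand: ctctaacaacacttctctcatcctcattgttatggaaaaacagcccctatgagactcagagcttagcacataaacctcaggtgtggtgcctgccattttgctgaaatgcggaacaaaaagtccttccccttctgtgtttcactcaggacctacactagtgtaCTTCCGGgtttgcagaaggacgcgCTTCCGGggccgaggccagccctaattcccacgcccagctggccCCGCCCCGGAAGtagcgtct
Rbm39, chr2:156180239-156180488, minus strand: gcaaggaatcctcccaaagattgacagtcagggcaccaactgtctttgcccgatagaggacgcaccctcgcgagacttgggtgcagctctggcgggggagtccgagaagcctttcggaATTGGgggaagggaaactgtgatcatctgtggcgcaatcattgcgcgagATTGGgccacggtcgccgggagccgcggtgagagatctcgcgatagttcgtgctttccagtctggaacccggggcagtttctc
Ddx17, chr15:79546742-79546991, minus strand: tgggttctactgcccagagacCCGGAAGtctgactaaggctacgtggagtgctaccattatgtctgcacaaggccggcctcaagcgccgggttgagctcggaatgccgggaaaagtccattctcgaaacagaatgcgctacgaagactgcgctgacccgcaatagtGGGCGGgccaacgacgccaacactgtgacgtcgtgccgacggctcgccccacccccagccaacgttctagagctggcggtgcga
Rpl26, chr11:68901316-68901565, plus strand: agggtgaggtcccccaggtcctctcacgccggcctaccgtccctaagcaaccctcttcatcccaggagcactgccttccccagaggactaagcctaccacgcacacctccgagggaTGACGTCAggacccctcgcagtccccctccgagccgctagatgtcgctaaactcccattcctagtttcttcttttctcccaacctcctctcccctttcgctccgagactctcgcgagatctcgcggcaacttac
Rpl27a, chr7:109518945-109519146, plus strand: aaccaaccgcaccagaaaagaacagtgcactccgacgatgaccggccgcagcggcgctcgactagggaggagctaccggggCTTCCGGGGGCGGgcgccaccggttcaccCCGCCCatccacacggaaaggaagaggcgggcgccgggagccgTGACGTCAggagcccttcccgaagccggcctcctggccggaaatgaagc
Dhx36, chr3:62507005-62507238, minus strand: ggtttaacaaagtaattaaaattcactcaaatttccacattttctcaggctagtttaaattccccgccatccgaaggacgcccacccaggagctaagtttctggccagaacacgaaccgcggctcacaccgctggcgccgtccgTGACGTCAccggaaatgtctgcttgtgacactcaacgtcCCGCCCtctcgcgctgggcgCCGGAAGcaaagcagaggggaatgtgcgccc
A GC box (GGGCGG, bound by SP factors) was found in 28 of the 52 member promoters (53.8%), in 65.4% of the 748 promoters of other genes with a peak and in 32.7% of all 32851 promoters. The ETS motif (CCGGAAG) was found in 14 member promoters (26.9%), in 23.3% of promoters of other genes with a peak and in 6.9% of all promoters. The NF-Y motif (CCAAT) was found in 15 member promoters (28.8%), compared with 22.9% and 33.8%. The CRE motif (TGACGTCA, its own reverse complement) was found in 5 member promoters (9.6%), compared with 3.3% and 1.5%. Only 1 member promoter held a TATA motif (TATAAA), that of Srsf2, compared with 3.5% and 12.4%. The NRF1 motif (GCGCATGCG) and the YY1 motif (AAGATGGCG) were each found in 1 member promoter (1.9%). The NRF1 motif was found in 7.9% of promoters of other genes with a peak and in 1.4% of all promoters, and the YY1 motif in 2.3% and 0.6%. GC content had a median of 60.8% in member promoters, 62.8% in promoters of other genes with a peak and 52.4% in all promoters. The observed-to-expected CpG ratio had medians of 0.95, 0.86 and 0.37 in the same order. These matches describe letters in the windows, not binding of the factors. Some lie outside the peak, among them the CRE matches of Rpl26 and Dhx36 and the matches of Ddx17.

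Genes that fit the rule carried a peak more often than protein-coding genes at large. In the GENCODE M21 annotation, 66 of 363 rule genes (18.2%) had an assigned peak, compared with 1226 of all 21924 protein-coding genes (5.59%). The remaining member, Rps3a, is listed there under another symbol. Helicases had peaks at 12 of 53 genes, ribosomal proteins at 16 of 76, core spliceosome genes at 10 of 48, and genes of 3′ end processing and Integrator at 5 of 26. Initiation factors had peaks at 9 of 55 genes, splicing regulators and RNA-binding proteins at 11 of 78, and export and decay genes at 3 of 27. Within the initiation factors, 5 of 16 Eif4 genes, which act at the mRNA cap, and 2 of 5 Eif2b genes, subunits of the eIF2 exchange factor, had a peak. None of the 14 Eif3 genes (a complex that binds the small ribosomal subunit and organizes other initiation factors there) and none of the 6 Thoc genes (mRNA export) had an assigned peak. The bar plot of genes with a peak gives these shares by family.

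**Figure D1:**
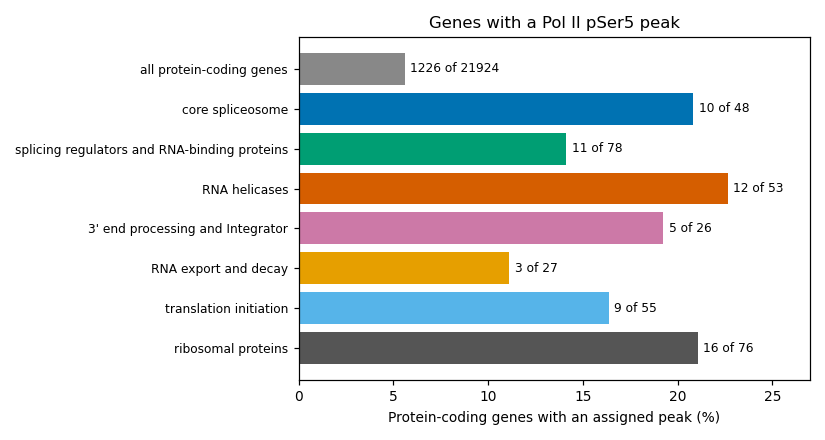
Share of annotated protein-coding genes with an assigned Pol II pSer5 peak (x axis, %), for all genes and for each family (bars, with the numbers of genes printed). All 7 families lie between 11.1% and 22.6%, above the 5.59% of all protein-coding genes.

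Most member peaks sat on the start of their gene. The centre lay no farther than 500 nt from the assigned TSS in 62 of 67 members (92.5%) and in 951 of 1288 peaks of other genes (73.8%). It was within 100 nt in 80.6% and 58.2%, and the median distance was 51.0 and 70.5 nt. Centres lay upstream of the TSS in 35 members (52.2%) and in 38.7% of peaks of other genes. Core spliceosome peaks were centred upstream in 8 of 10 cases and initiation factor peaks in 1 of 9. Member peaks were 118 to 491 nt wide (median 197 nt, as over all peaks). In 12 of the 67 members, another protein-coding gene also started within 500 nt of the peak centre, and the signal of such pairs could not be divided. Among them were Aurka beside Cstf1, Noc4l beside Ddx51 and Xpc beside Lsm3. Mfsd11 lay beside Srsf2, Txnl4b beside Dhx38, Pbld2 beside Hnrnph3, Gtf2h3 beside Eif2b1, Sphk2 beside Rpl18 and Mtrex beside Dhx29. For Cpsf3, Eif2a and Eif2b4 the nearest annotated transcript start belonged to the other gene, Itgb1bp1 (20 nt), Serp1 (6 nt) and Snx17 (25 nt).

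**Figure D2:**
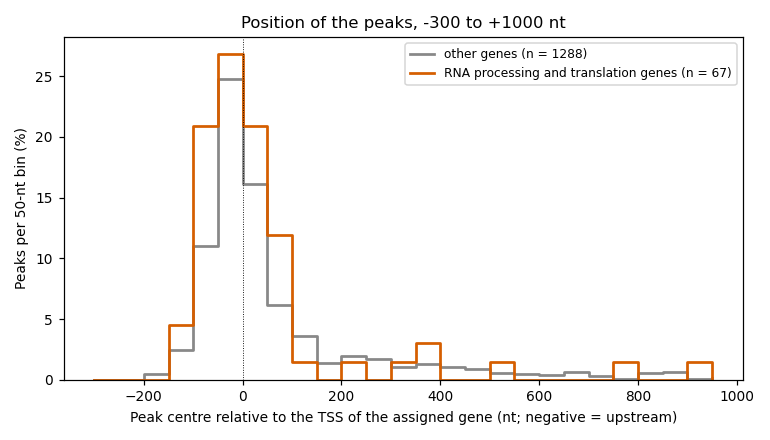
Position of the peak centre relative to the TSS of the assigned gene (x axis, nt) as the percentage of peaks per 50-nt bin (y axis), for the 67 member peaks and the 1288 peaks of other genes. Both distributions peak next to the TSS, and 80.6% of member peaks against 58.2% of the others lie within 100 nt of it.

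The 5 members centred farther than 500 nt from the assigned TSS were Hnrnpul2 (545 nt), Cnot11 (757 nt), Eif4e (928.5 nt), Rpl18 (2617 nt) and Dhx57 (35117.5 nt), all downstream. For 4 of them a transcript of the same gene in GENCODE M21 started nearby, 64 nt from the peak centre in Hnrnpul2, 53 nt in Cnot11, 178 nt in Eif4e and 3 nt in Rpl18. Dhx57, a DEAH-box helicase, was the exception, since its peak (chr17:80255260-80255457, minus strand) lay in an intron and 8256 nt from the nearest annotated transcript start. It held 5 and 10 normalized reads in Ctrl against 13 and 4 in Tet3smKO:T, so that the genotypes overlapped. Its log2 fold change was 0.04 ± 0.65 (SE, n = 2 per genotype, limma adjusted p = 0.987), and its sign turned without Ctrl replicate 1 (-0.39) or Tet3smKO:T replicate 1 (-0.70). The sequence under this intragenic peak, on the strand of the gene, held none of the 7 motifs and had a GC content of 50.3%.
Dhx57, chr17:80255261-80255457, minus strand: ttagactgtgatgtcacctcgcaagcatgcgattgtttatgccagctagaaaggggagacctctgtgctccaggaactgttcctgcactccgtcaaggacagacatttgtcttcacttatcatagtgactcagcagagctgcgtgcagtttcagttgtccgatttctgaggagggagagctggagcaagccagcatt
Cnot11, a subunit of CCR4–NOT, held 23 and 24 normalized reads in Ctrl against 21 and 26 in Tet3smKO:T (log2 fold change -0.01 ± 0.25, adjusted p = 0.996). Rpl18 held 22 and 13 against 17 and 16 (-0.04 ± 0.33, adjusted p = 0.968), at a peak where Sphk2 also starts within 500 nt. Eif4e, which binds the mRNA cap, held 12 and 18 against 21 and 16 (0.30 ± 0.32, adjusted p = 0.795).

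The level of a peak was set per 100 nt of its width where peaks of different genes were compared. The member median was 6.83 normalized reads per 100 nt, compared with 6.82 in peaks of other genes and 6.14 in peaks with no assigned gene. The highest member was Eif4a2, an RNA helicase that unwinds the 5′ end of mRNAs, with 12.6 per 100 nt. Eif2b4 followed with 11.1 and Eif2a with 10.7, and the lowest were Cstf1 with 2.98 and Hnrnpul2 with 3.63. The peaks of Eif2b4, Eif2a and Cstf1 are among those shared with the start of another gene. By family, the medians were 9.79 in export and decay, 8.33 in translation initiation, 7.51 in ribosomal proteins, 7.40 in splicing regulators and RNA-binding proteins, 6.92 in the core spliceosome, 6.13 in 3′ end processing and Integrator and 6.01 in helicases. The plot of values by library shows the total per peak.

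**Figure D3:**
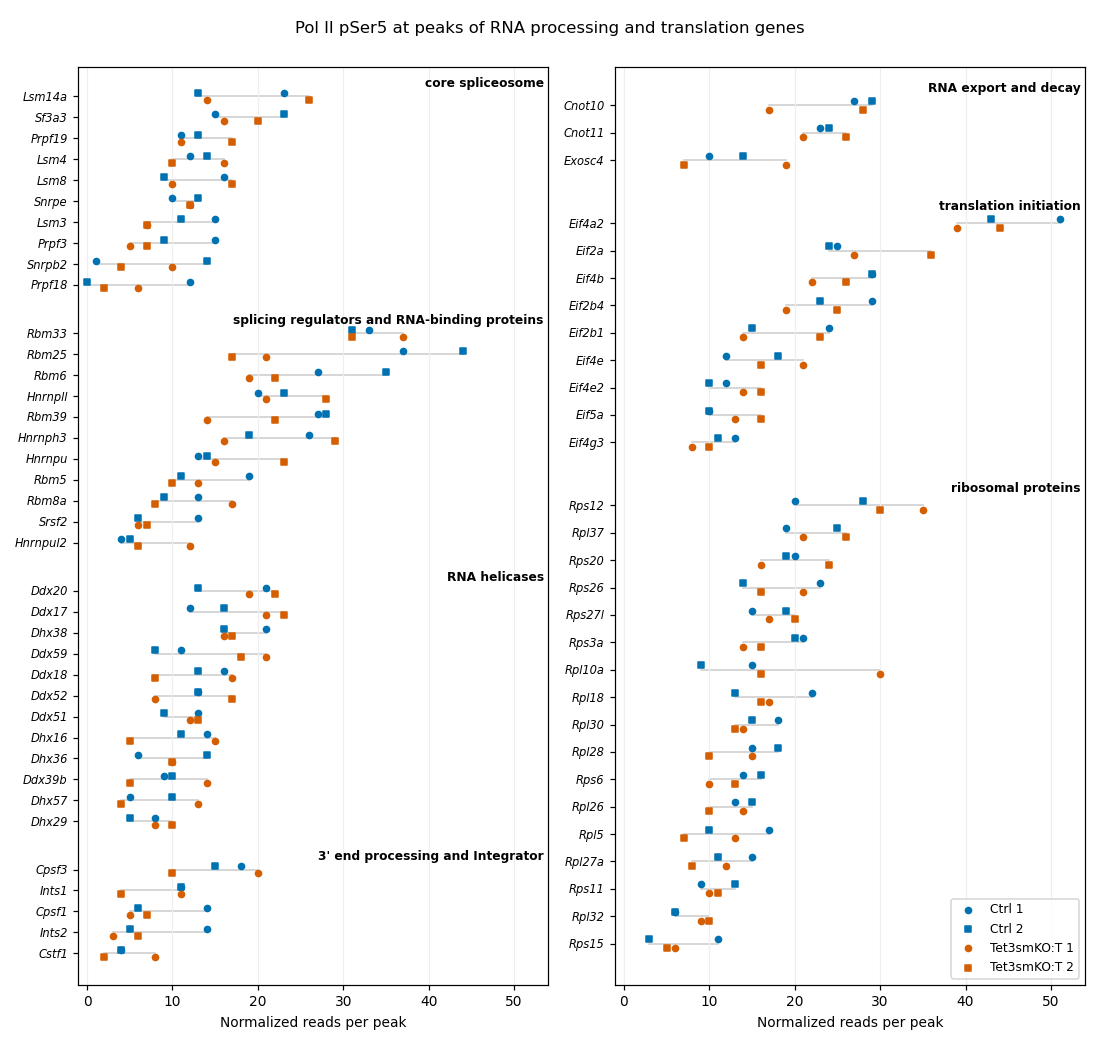
Normalized reads per peak (x axis) in each of the 4 libraries for all 67 member peaks, grouped by family and ordered by mean (blue, Ctrl; orange, Tet3smKO:T; circles and squares, replicates 1 and 2; grey lines, range). The genotypes do not overlap in 20 peaks, of which Rbm25 (37 and 44 against 21 and 17) has the largest gap. Of members, 14.9% are higher and 14.9% lower without overlap, compared with 17.1% and 16.6% of all peaks.

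Between genotypes, no member peak passed the test and the counts of members were close to those over all peaks. By limma with Benjamini–Hochberg adjustment over all 1761 peaks, 0 of 67 members had an adjusted p under 0.05, as had 0 of all peaks (0%). With a quasi-Poisson model of estimated reads, 5 of all peaks (0.284%) were called, none of them a member. The lowest adjusted p was 0.681 among members and over all peaks. At an unadjusted p under 0.05, 1 member was higher and 1 lower in Tet3smKO:T, compared with 3.24% and 3.98% of all peaks. Both Tet3smKO:T values lay above both Ctrl values in 10 members (14.9%) and below them in 10 (14.9%), compared with 17.1% and 16.6% of all peaks. The median log2 fold change was -0.04 over members and -0.02 over all peaks. It was above 0 in 30 of 67 members (44.8%) and in 48.4% of all peaks. With 2 libraries per genotype, the 95% interval of a member's log2 fold change reached a median of 0.81 to either side before any adjustment. The changes of Rbm25 and Ddx59, larger than this, did not pass the adjusted threshold either. In a sorted population, a change in every cell and a change in a share of the cells cannot be told apart.

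**Figure D4:**
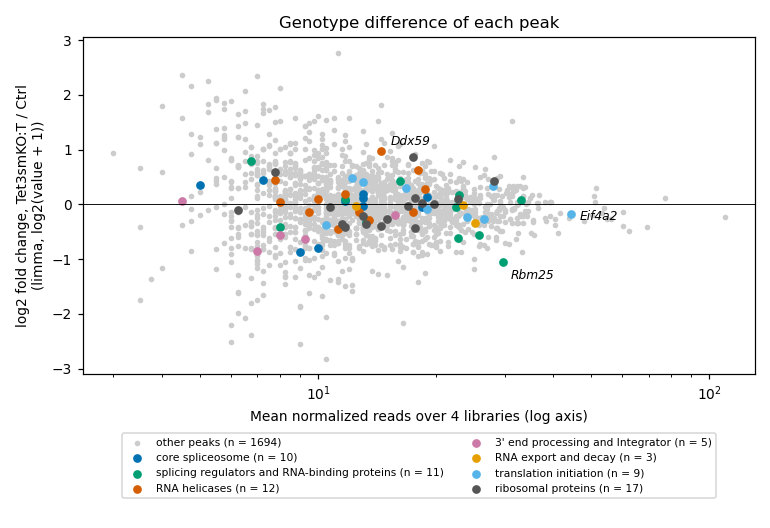
log2 fold change of each peak, Tet3smKO:T over Ctrl (y axis, limma on log2(value + 1)), against its mean over 4 libraries (x axis, log scale), with member peaks coloured by family and all other peaks in grey. Members lie within the cloud of other peaks between -1.06 (Rbm25) and 0.98 (Ddx59).

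Over the 67 members, replicates and libraries of different genotypes differed by similar amounts. For members, the median absolute log2 difference was 0.36 between the Ctrl libraries and 0.38 between the Tet3smKO:T libraries. It was 0.36 to 0.45 in the 4 pairs of libraries from different genotypes. Pearson's r of the log2 values over members was 0.56 within Ctrl, 0.66 within Tet3smKO:T and 0.48 to 0.75 across genotypes. Over all 1761 peaks it was 0.66 within either genotype and 0.55 to 0.60 across genotypes, lower in all 4 pairs. These values are descriptions over peaks that share libraries and depth. Member peaks together took 4.19% and 3.80% of the summed values in Ctrl and 4.00% and 3.87% in Tet3smKO:T. The means were 3.99% ± 0.28 and 3.93% ± 0.09 (SD, n = 2 each, exact two-sided permutation p = 1). The smallest p that 2 against 2 libraries allow is 0.333.

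Families were set by symbol prefix. Among the 11 peaks of splicing regulators and RNA-binding proteins, 2 were higher and 3 lower in Tet3smKO:T without overlap, beside 17.1% and 16.6% of all peaks. The 3 lower ones were Rbm25, Rbm6 and Rbm39, of 6 Rbm peaks. Rbm25, a splicing factor associated with the U1 snRNP, had its peak 62 nt upstream of the TSS (chr12:83632034-83632346, plus strand). It held 37 and 44 normalized reads in Ctrl against 21 and 17 in Tet3smKO:T. Both mutant libraries were thus below both controls, with a log2 fold change of -1.06 ± 0.25 (95% interval -1.67 to -0.44, unadjusted p = 0.00581, limma adjusted p = 0.681). The unadjusted p rose above 0.05 without Ctrl replicate 2. Rbm6 held 27 and 35 against 19 and 22 (-0.57 ± 0.26, adjusted p = 0.693). Rbm39, which recruits splicing factors to 3′ splice sites, held 27 and 28 against 14 and 22 (-0.62 ± 0.30, adjusted p = 0.699). Its promoter, printed above, held 2 matches of the NF-Y motif. In the other Rbm peaks the genotypes overlapped. Rbm5 held 19 and 11 against 13 and 10, Rbm8a, a core subunit of the exon junction complex, held 13 and 9 against 17 and 8, and Rbm33, with the highest total of the family in a peak of 491 nt (6.72 per 100 nt, under the family median), held 33 and 31 against 37 and 31 (0.08 ± 0.22, adjusted p = 0.928).

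The 2 higher ones, Hnrnpu and Hnrnpul2, were among 4 hnRNP peaks. Hnrnpu, an abundant nuclear RNA-binding protein, held 13 and 14 in Ctrl against 15 and 23 in Tet3smKO:T, and Hnrnpul2 held 4 and 5 against 12 and 6 (0.80 ± 0.55, adjusted p = 0.716). Hnrnpll (20 and 23 against 21 and 28) and Hnrnph3 (26 and 19 against 16 and 29) overlapped. Srsf2, an SR protein and the sole Srsf member, held 13 and 6 against 6 and 7. The 11 peaks of splicing regulators took 0.876% and 0.832% of the summed values in Ctrl and 0.744% and 0.762% in Tet3smKO:T (exact permutation p = 0.333, the smallest possible). Without Rbm25, a calculation chosen after the values were seen, the shares overlapped, with 0.736% and 0.669% against 0.662% and 0.699%.

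In the core spliceosome, without overlap, none of the 10 peaks lay higher in the Tet3smKO:T libraries and 2 were lower (17.1% and 16.6% of all peaks). Prpf3, a protein of the U4/U6 snRNP, held 15 and 9 normalized reads against 5 and 7 (log2 fold change -0.87 ± 0.42, adjusted p = 0.699). Lsm3, a subunit of the Sm-like ring on U6 snRNA and on mRNAs bound for decay, held 15 and 11 against 7 and 7 (-0.79 ± 0.34, adjusted p = 0.691). The Xpc gene starts within 500 nt of this peak. The highest total was that of Lsm14a, which is grouped here by its prefix but is a decapping and P-body protein, with 23 and 13 against 14 and 26 (0.13 ± 0.42, adjusted p = 0.933). Snrpb2 (1 and 14 against 10 and 4) and Prpf18 (12 and 0 against 6 and 2) differed most between replicates. The 1 and the 0 lie under the level of 3 reads (2.72 normalized reads in Ctrl 1 and 3.75 in Ctrl 2), which covers counting error only. All 8 other peaks of the family overlapped, and the family median of the log2 fold change was 0.09.

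Among RNA helicases, 2 of 12 lay higher in Tet3smKO:T without overlap and 0 lay lower (17.1% and 16.6% of all peaks). Ddx59 held 11 and 8 normalized reads in Ctrl against 21 and 18 in Tet3smKO:T, at a peak centred 36.5 nt downstream of the TSS (chr1:136415174-136415441, plus strand). Its log2 fold change was 0.98 ± 0.30 (95% interval 0.24 to 1.72, unadjusted p = 0.0182, adjusted p = 0.681). The unadjusted p was above 0.05 without Ctrl replicate 2 and without either Tet3smKO:T replicate. Ddx17, a DEAD-box helicase with roles in splicing and microRNA processing, held 12 and 16 against 21 and 23 (0.63 ± 0.28, adjusted p = 0.691). Ddx20, an SMN complex helicase with the highest total of the family (6.89 per 100 nt, compared with 8.44 in Ddx52), overlapped with 21 and 13 against 19 and 22 (0.29 ± 0.32, adjusted p = 0.806). Dhx16 and Dhx38, which remodel the spliceosome around catalysis, held 14 and 11 against 15 and 5, and 21 and 16 against 16 and 17. Dhx36, which unwinds G-quadruplexes, held 6 and 14 against 10 and 10, and Ddx39b, which acts in splicing and mRNA export, held 9 and 10 against 14 and 5. The family took 0.563% and 0.510% of the summed values in Ctrl and 0.678% and 0.571% in Tet3smKO:T (exact permutation p = 0.333). Without Ddx59, again chosen after the values were seen, the shares overlapped, with 0.521% and 0.480% against 0.596% and 0.503%.

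**Figure D5:**
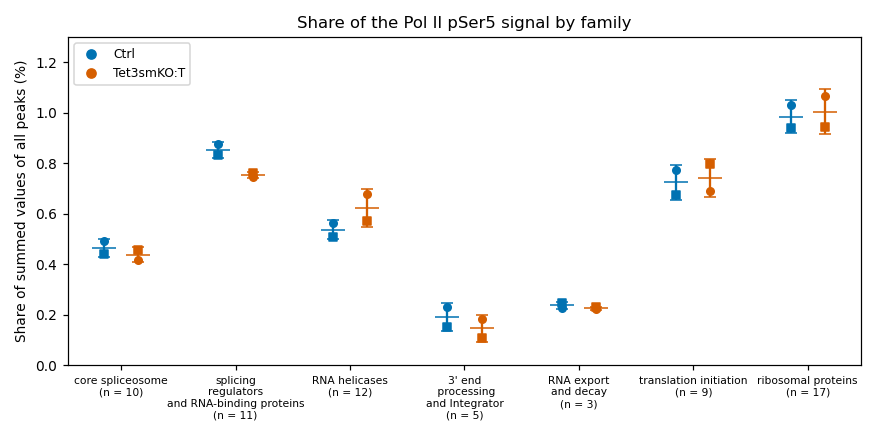
Share of the summed values of all 1761 peaks (y axis, %) taken by each family (x axis, number of peaks in parentheses) in Ctrl (blue) and Tet3smKO:T (orange), with circles and squares for replicates 1 and 2, the horizontal line for the mean and bars for the SD (n = 2). The genotypes do not overlap in splicing regulators and RNA-binding proteins and in RNA helicases, and overlap in the other families.

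For 3′ end processing and Integrator, none of 5 peaks was free of overlap (17.1% higher and 16.6% lower of all peaks). The log2 fold change was negative in 4 and above 0 in 1 (family median -0.56), and 48.4% of all peaks were above 0. With 5 peaks, this count is not read as particular to the family. Cpsf3, the endonuclease that cuts pre-mRNA before polyadenylation, held 18 and 15 against 20 and 10 (-0.20 ± 0.38, adjusted p = 0.903). The nearest transcript start to this peak is that of Itgb1bp1. Cpsf1, which helps to recognize the poly(A) signal, held 14 and 6 against 5 and 7. Ints1 and Ints2, subunits of Integrator, held 11 and 11 against 11 and 4, and 14 and 5 against 3 and 6. Cstf1 held 4 and 4 against 8 and 2. In export and decay, Cnot10, another subunit of CCR4–NOT with 3 ETS matches and a GC box in its promoter, held 27 and 29 against 17 and 28 (-0.34 ± 0.31, adjusted p = 0.748). Exosc4, a ring subunit of the exosome, held 10 and 14 against 19 and 7.

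Translation initiation peaks lay on either side of 0, with 4 of 9 log2 fold changes above it and a median of -0.08. Without overlap, 3 of the 9 lay higher and 2 lower in Tet3smKO:T (17.1% and 16.6% of all peaks), and with so few peaks per family no such count is read as particular to it. Their share of the summed values was 0.725% ± 0.069 in Ctrl and 0.743% ± 0.076 in Tet3smKO:T (SD, n = 2 each, exact permutation p = 0.667). Eif4a2 held 51 and 43 normalized reads in Ctrl against 39 and 44 in Tet3smKO:T (-0.17 ± 0.21, 95% interval -0.70 to 0.36, adjusted p = 0.818). Its cofactor Eif4b held 29 and 29 against 22 and 26, and Eif4g3, an isoform of the eIF4G scaffold, held 13 and 11 against 8 and 10, both lower without overlap. Eif4e2, a cap-binding relative of Eif4e, held 12 and 10 against 14 and 16. Eif5a, which helps ribosomes through difficult peptide bonds, held 10 and 10 against 13 and 16 (0.49 ± 0.29, adjusted p = 0.716). Eif2a held 25 and 24 against 27 and 36, so that these 3 peaks were higher without overlap. The nearest transcript starts to the Eif2a and Eif2b4 peaks belong to Serp1 and Snx17. The Eif2b subunits Eif2b1 (24 and 15 against 14 and 23) and Eif2b4 (29 and 23 against 19 and 25) overlapped.

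Ribosomal protein peaks also had members on either side, with 3 of 17 higher and 3 lower without overlap (17.1% and 16.6% of all peaks) and a median log2 fold change of -0.04. In the small subunit, Rps12, with the highest total of the family (7.61 per 100 nt, compared with 9.19 in Rps20), held 20 and 28 against 35 and 30 (0.44 ± 0.27, adjusted p = 0.716). Rps3a held 21 and 20 against 14 and 16 (-0.43 ± 0.25, adjusted p = 0.716), and Rps6, a target of S6 kinases, held 14 and 16 against 10 and 13. In the large subunit, Rpl10a held 15 and 9 against 30 and 16 (0.86 ± 0.41, adjusted p = 0.699), with a gap of 1 normalized read between the genotypes. Rpl32 held 6 and 6 against 9 and 10 (0.58 ± 0.39, adjusted p = 0.716), and Rpl30 held 18 and 15 against 14 and 13. The other 11 peaks overlapped. Ribosomal protein genes have many processed pseudogene copies, which may share reads with their exons, and how the counting treated such reads is not given in the sources used here.

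Genes of the same pathways outside the rule were counted in the same way. Of 206 listed genes (Rps27a among them also fits the rule and had no peak), 38 had a peak (39 peaks), with 19 of 67 splicing genes, 6 of 44 for ribosome biogenesis, 5 of 26 for translation, 3 of 39 for export and decay, 3 of 20 tRNA ligases and 2 of 10 for 3′ end processing. The peak assigned to the tRNA ligase gene Aars lay 22455.5 nt from its TSS and within 500 nt of the start of Exosc6, which fits the rule. None passed the adjusted threshold, 5 of the 39 peaks were higher and 4 lower without overlap (17.1% and 16.6% of all peaks), and the median log2 fold change was 0 in both splicing genes and all lists together. Edc3, a decapping enhancer, was the sole peak of these with an unadjusted p under 0.05. It held 5 and 6 normalized reads in Ctrl against 17 and 20 in Tet3smKO:T at a position 14966 nt inside the gene (log2 fold change 1.58 ± 0.31, unadjusted p = 0.00263, adjusted p = 0.681). Eef1a1, the elongation factor that delivers tRNAs, had 2 peaks, with 57 and 80 against 42 and 62 near its TSS and 63 and 96 against 50 and 68 at 726 nt downstream. Both overlapped between genotypes (adjusted p = 0.716 each).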

How the data were processed

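Pol II pSer5 ChIP–seq of FACS-sorted SMCs was analysed in 2 Ctrl and 2 Tet3smKO:T libraries, whose groups and replicate numbers came from the sample titles. The 4 inputs were not analysed here, and 0 per-sample columns were left unused.

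The submitters' processing notes name FastQC, Trimmomatic 0.36, Picard 2.17.10, MACS2, DESeq2 and build mm10, whereas the methods name Reaper for trimming. The aligner is not given in the sources used here. According to the methods, the authors called peaks per library, unified and recounted them, subtracted input and normalized with DESeq2. The deposited value per peak is a score (reads after normalization, rounded to whole numbers) and no raw count. As described above, the values fitted whole reads times a step. The methods alone therefore do not settle whether input was subtracted from these values, and this was not tested. The deposited overlap of peak and gene is a fraction. The deposited distance to the TSS is unsigned, so its side was taken from the gene coordinates. Coordinates are as deposited.

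The test was limma 3.58.1 (R 4.3.3, eBayes with trend) on log2(value + 1), fitted to all 1761 peaks and adjusted by Benjamini–Hochberg (threshold 0.05). It was checked on simulated data whose changes were larger than that of any member. The check therefore does not show how well changes of the size seen here are found. Fold changes on this scale understate the change of low peaks. Shares used an exact two-sided permutation test. Estimated reads are values divided by the step of each library, and their limits cover counting error only. Promoters were from RefSeq, annotation from GENCODE M21 (GRCm38); 200 of 200 promoter sequences compared were identical to the genome used. Other calculations used Python 3.11.15, pysam 0.24.0, scipy 1.17.1 and matplotlib 3.10.9.

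The members and lists were chosen with earlier results of these data known. Full statistics were given for the peak of the highest mean per family, peaks with an unadjusted p under 0.05, the 6 largest non-overlapping differences in each direction and peaks over 500 nt from the TSS. No member gene had 2 peaks. Alternatives were the pseudocount (0.1 or 10), the upper 75% of peaks by mean, quantile or total scaling, a replicate block, a quasi-Poisson test on estimated reads, other member and distance rules, and leaving out each library.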

Additional observations from a re-analysis of the deposited data

Results flagged for a closer look

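Signal at genes that fit the rule was also present in peaks outside the comparisons above. A total of 8 peaks with no assigned gene were centred within 500 nt of an annotated transcript start of Hnrnpa2b1, Ddx23, Rpl3, Eif3d, Lsm14b, Rbm4b, Eif3f or Ddx24. Their mean values over the 4 libraries had a median of 10.6 normalized reads. The median was 11.25 in all peaks with no assigned gene and 13.0 over all peaks, where the lowest mean was 3.0. The 10.6 lay above the level that 3 reads give in any library (2.07 to 3.75). This is a level over a counting limit, and input values were not analysed here. Rpl3 held 6 and 5 normalized reads in Ctrl against 9 and 11 in Tet3smKO:T, Eif3d held 9 and 9 against 12 and 12, and Rbm4b held 5 and 6 against 10 and 10, all higher without overlap. Ddx23 held 11 and 9 against 6 and 7, lower without overlap. Thus 3 of the 8 peaks were higher and 1 lower without overlap, beside 17.1% and 16.6% of all peaks. With so few peaks, these counts are not read as particular to them. The adjusted p (limma, all peaks) was 0.716 for Rpl3, Rbm4b and Ddx23 and 0.740 for Eif3d. The Eif3 genes, without an assigned peak, thus had 2 unassigned peaks at transcript starts.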

How the results depend on the processing

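No member passed an adjusted p under 0.05 in any alternative run (0 of 67 members, or fewer where peaks were filtered). Over all peaks, 6 were called with total scaling and 5 by the quasi-Poisson test on estimated reads, none of them a member. Of all 1761 peaks, 127 had an unadjusted p under 0.05 in the reported fit. Such peaks numbered 142 with quantile normalization, 161 with total scaling, 191 by the quasi-Poisson test and 74 with the replicate block. Deviations from the genotype mean had a correlation of -0.07 between libraries of the same number, and nothing states that a number marks a shared animal or day, so the libraries share only a number, and the block changed no adjusted call. Of members, 2 were higher at an unadjusted p under 0.05 with quantile normalization (Ddx59 and Ddx17), and 2 (Ddx59 and Rpl10a) with total scaling, with the replicate block and by the quasi-Poisson test. The quasi-Poisson test gave 4 lower (Rbm25, Rbm39, Prpf3 and Ints2). Leaving out 1 library in turn gave 0 to 2 higher and 1 to 3 lower. Non-overlapping members then numbered 19 to 22 higher and 18 to 25 lower, since fewer libraries have to be separated. The matching shares over all peaks are not given here, so these counts are not read as a result about the members. With 1 library left out, the median log2 fold change of members ranged from -0.14 (without Ctrl replicate 2) to 0 (without Tet3smKO:T replicate 2), and it was 0.01 with quantile normalization.

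Rbm25 stayed negative in all 12 alternatives (-1.20 to -0.80), with adjusted p from 0.0821 (quasi-Poisson) to 0.780. Ddx59 stayed positive in 12 (0.60 to 1.18, adjusted p 0.304 to 0.780). The unadjusted p of both was under 0.05 in every alternative that kept all libraries. These 12 are not independent checks. The replicate block, the filter by mean and the member rule leave the log2 fold change of a peak unchanged. Where the genotypes do not overlap, as in these 2 peaks, leaving out 1 library cannot turn the sign. Without Ctrl replicate 2, neither was under 0.05, nor was Ddx59 without either Tet3smKO:T replicate. The sign turned for Cnot11 (0.0733 with quantile normalization, 0.0253 with total scaling) and Rpl18 (0.0148 with quantile normalization), and for Lsm14a (-0.0019 by the quasi-Poisson test). With 1 library left out it turned for Cnot11 (range -0.155 to 0.140), Rpl18 (-0.395 to 0.321), Lsm14a (-0.289 to 0.559), Dhx57 (-0.700 to 0.785), Ddx20 (-0.0367 to 0.615), Cpsf3 (-0.665 to 0.268), Cnot10 (-0.687 to 0.00086) and Rbm33 (-0.0437 to 0.204). The sign held but the value moved by over 1.5 times for Rpl10a (0.43 to 1.29), Hnrnpul2 (0.35 to 1.25), Rps12 (0.20 to 0.67), Rbm39 (-0.93 to -0.31), Prpf3 (-1.21 to -0.53), Eif4a2 (-0.29 to -0.05) and Eif4e (0.03 to 0.57). The causes were not tested. There were 2 libraries per genotype and 10 to 20 estimated reads in a median member peak. How far the number of reads set the precision of the fold changes was not tested.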

Other observations

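A further 11 peaks assigned to another gene, or to an identifier without a symbol, were centred within 500 nt of a transcript start of a gene that fits the rule. The peak assigned to Lias lay at the start of Rpl9, a large-subunit ribosomal protein, and held 11 and 8 normalized reads in Ctrl against 17 and 18 in Tet3smKO:T (log2 fold change 0.83 ± 0.30, unadjusted p = 0.0328, limma adjusted p = 0.681). It was the only one of the 11 without overlap, beside 17.1% higher and 16.6% lower over all peaks. The peak assigned to Aars, at the start of Exosc6, is also counted among the tRNA ligases above. The peak at Eif4g2, a translation initiation regulator, held 33 and 19 against 27 and 24. The peak at Eif2s1, the eIF2 subunit whose phosphorylation limits initiation, is assigned to Atp6v1d and held 25 and 23 against 21 and 31. The median log2 fold change was 0.09 over these 11 peaks and 0.07 over the 8 without an assigned gene.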
